A study of Mus musculus with 12 samples.

Results

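The 10 genes described here are members of the HSP70 chaperone family in mouse spermatogonia: *Hspa8*, *Hspa1a*, *Hspa1b*, *Hspa1l*, *Hspa2*, *Hspa5*, *Hspa9* and the HSP110 genes *Hspa4*, *Hspa4l* and *Hsph1*. They were chosen by gene name from the 55385 genes of a table of TPM, a length-corrected share of each library, and the family was selected with values of this table in view, so that their levels and differences are given as a description without p-values. The study asked how Polycomb repressive complex 1 (PRC1) maintains undifferentiated spermatogonia, and its RNA-seq data comprise 12 libraries in 6 groups of 2, each library being an independent pool of sorted cells.

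HSP70 proteins bind exposed stretches of unfolded proteins and release them in a cycle driven by ATP. J-domain proteins deliver the client and stimulate hydrolysis of ATP, and nucleotide exchange factors, among them the HSP110 proteins, exchange ADP for ATP and so release the client. In the testis the family includes *Hspa2*, a chaperone of the meiotic synaptonemal complex and of later germ cells that is required for male fertility, and *Hspa1l*, which is transcribed mainly in spermatids.

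WT undifferentiated spermatogonia (Aundiff, sorted as E-Cadherin+ CD9high KIT-) and WT early differentiating spermatogonia (Adiff, E-Cadherin+ CD9medium KIT+) came from untreated adult C57BL/6 males of 2 to 3 months (mo), and their libraries were made with the stranded TruSeq kit from 100000 to 150000 pooled cells. The other 8 libraries were Aundiff of mice on a mixed C57BL/6 and FVB/NJ background at 2 mo. PRC1cKO mice were *Ring1*-/-; *Rnf2* F/-; *Ddx4*-Cre, with a Cre active in germ cells, and their PRC1ctrl littermates were *Ring1*-/-; *Rnf2* F/+; *Ddx4*-Cre, so that controls and mutants alike lacked *Ring1*. Untreated mice gave 2 libraries per genotype from about 7000 pooled cells with a low-input method (Smart-Seq2). The other mice received Win18446, which inhibits the enzyme ALDH1A2 and so blocks retinoic acid synthesis, at 40 µg/µl in 50 µl of DMSO in about 30 daily injections from 1 mo of age, were sampled 24 h later, and gave TruSeq libraries. Low-input preparation was thus used for all untreated PRC1 mice and for no other group, and the library method cannot be told apart from mouse, treatment and cell number.

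The deleted genes were read first. *Ring1* was at 8.61 to 19.9 TPM in the 4 WT libraries and at 0.03 to 0.25 TPM in the 8 PRC1 libraries. *Rnf2* was at 28.3 and 47.6 TPM in PRC1ctrl and at 56.7 and 67.5 TPM in PRC1cKO at 2 mo, and at 78.1 and 67.2 against 86.2 and 93.1 TPM after Win18446. A value per gene does not separate transcripts with and without the floxed exons, and *Rnf2* was not lower under the label PRC1cKO, so the libraries are named by their labels. Depth is unknown, since TPM keeps no read number. From 12422 to 16599 genes per library reached 1 TPM, and mitochondrial genes held 12.5% to 16.7% of the TPM in the 4 low-input libraries against 4.28% to 6.69% in the other 8. Markers of Aundiff, 19 genes such as *Gfra1* and *Id4*, summed to 1349 and 1500 TPM in WT Aundiff and to 340.3 and 374 TPM in WT Adiff, which matches the labels of the sorted fractions.

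Shared sequence limits which members can be read separately. *Hspa1a* (chr17:34969190-34972156, GRCm38, minus strand) and *Hspa1b* (chr17:34956436-34959238, minus strand) each lie in a single exon, and their coding sequences were 99.4% identical in gencode vM21. The 250 bases before their start sites differed at 3 positions (98.8% identical). They are printed 5′ to 3′ from the RefSeq promoter table (build GRCm38.p6), because both genes were lowest in the low-input libraries but came apart in WT Adiff. Capitals mark a CCAAT box in either direction and a heat shock element of 2 units (GAANNTTC or TTCNNGAA). The latter is a short form of the motif bound by heat shock factors.
Hspa1a, chr17:34972157-34972406, minus strand: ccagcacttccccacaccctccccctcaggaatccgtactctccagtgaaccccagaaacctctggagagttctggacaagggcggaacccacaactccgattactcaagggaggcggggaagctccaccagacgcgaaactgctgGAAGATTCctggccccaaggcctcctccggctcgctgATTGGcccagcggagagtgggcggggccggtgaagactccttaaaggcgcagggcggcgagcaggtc
Hspa1b, chr17:34959239-34959488, minus strand: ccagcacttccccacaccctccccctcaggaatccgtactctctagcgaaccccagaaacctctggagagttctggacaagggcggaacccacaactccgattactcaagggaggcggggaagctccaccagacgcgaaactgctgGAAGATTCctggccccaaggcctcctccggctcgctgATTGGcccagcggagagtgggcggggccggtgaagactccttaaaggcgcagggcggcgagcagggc
In both, the heat shock element began 104 bases before the start site.

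A search of both strands of the 250 bases before all 32851 start sites of the RefSeq table found the 2-unit heat shock element in 12.8% of windows, a CCAAT box in 33.9% and the ER stress element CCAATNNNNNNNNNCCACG in 0.113%. Each ER stress element also contains a CCAAT box. A heat shock element of 3 units was in 0.466% of windows and before none of the members in the table. Among these members, the 2-unit heat shock element was found before *Hspa1a*, *Hspa1b* and *Hsph1*, and the ER stress element only before *Hspa5*. Both stretches are shown with 30 bases, the motif in capitals.
Hspa5, chr2:34772020-34772049, plus strand: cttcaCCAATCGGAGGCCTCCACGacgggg
Hsph1, chr5:149636351-149636380, minus strand: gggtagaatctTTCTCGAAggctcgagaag
The *Hspa5* element began 65 bases before the start site and the *Hsph1* element 33 bases before the nearest of its annotated start sites. *Hspa4* and *Hspa4l* held neither motif nor a CCAAT box in this window, and *Hspa8* and *Hspa9* were not searched.

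The members differ at the end of the protein, where the cytosolic and testis forms carry a motif that binds co-chaperones with tetratricopeptide repeats and the ER form a retention signal. The last 30 coding bases before the stop codon are given below, with the 12 bases of that signal in capitals (gencode vM21 transcripts, GRCm38).
Hspa1a: ggctcaggacccaccatcGAGGAGGTGGAT
Hspa1b: ggctcaggacccaccatcGAGGAGGTGGAT
Hspa1l: gccacaggccctaccatcGAGGAAGTAGAT
Hspa2: tctggagggcccaccatcGAGGAAGTGGAC
Hspa8: tcttcaggccccaccattGAAGAGGTGGAT
Hspa5: gaagaggatacatcagaaAAAGATGAGTTG
*Hspa1a* and *Hspa1b* shared this end in full, while *Hspa2* was 78.2% identical to *Hspa1a* and 73.6% to *Hspa8* over the whole coding sequence. In stretches of 100 bases, the read length of the study, 56.5% of the *Hspa1a* transcript, 49.9% of *Hspa1b*, 70.8% of *Hspa1l* and 63.4% of *Hspa8* also occurred in a transcript of another gene on either strand, and 0% of the other 6 transcripts did. For *Hspa8* the genes sharing most were pseudogenes such as *Gm15459*, which was at no more than 1.15 TPM in any library. For *Hspa1l* it was *Gm10501*, annotated on the opposite strand over 71.9% of its exonic bases and at 0.18 to 2.16 TPM. The values of *Hspa1a* and *Hspa1b* below therefore depend on how shared reads were treated, and those of *Hspa1l* and *Hspa8* may. The study describes removing reads without a unique position. Whether the TPM were computed without those reads or by dividing them between genes is not known. For *Hspa1l* the sharing also depends on strand. The TruSeq libraries were stranded, but whether strand entered the TPM is not known. Reads were also paired, which stretches of a single read length do not take into account.

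*Hspa8* (chr9:40800984-40810087), the constitutive cytosolic chaperone, was the most abundant member in every library, at 1065 to 2555 TPM. *Hspa5* (BiP, chr2:34771970-34777547), the chaperone of the endoplasmic reticulum, and *Hspa4* (chr11:53259814-53300457), an HSP110 exchange factor, followed with 289 to 758 TPM and 190.0 to 376 TPM. These 3 genes made up 86.9% to 95.3% of the summed TPM of the family. *Hspa9* (mortalin), the mitochondrial member, lay at 51.9 to 225.5 TPM, *Hspa4l* at 29.4 to 97.3 TPM and *Hsph1* (chr5:149614287-149636376) at 27.5 to 69.8 TPM. *Hspa2*, *Hspa1a*, *Hspa1b* and *Hspa1l* were at 39.7 TPM or less in all 12 libraries. The sum of the family ranged from 1770.0 TPM in PRC1ctrl replicate 1 at 2 mo to 3540.0 TPM in WT Aundiff replicate 1, and the other 11 libraries lay at 2820.0 TPM or above. TPM is corrected for transcript length, so these levels can be set side by side between genes.

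**Figure D1:**
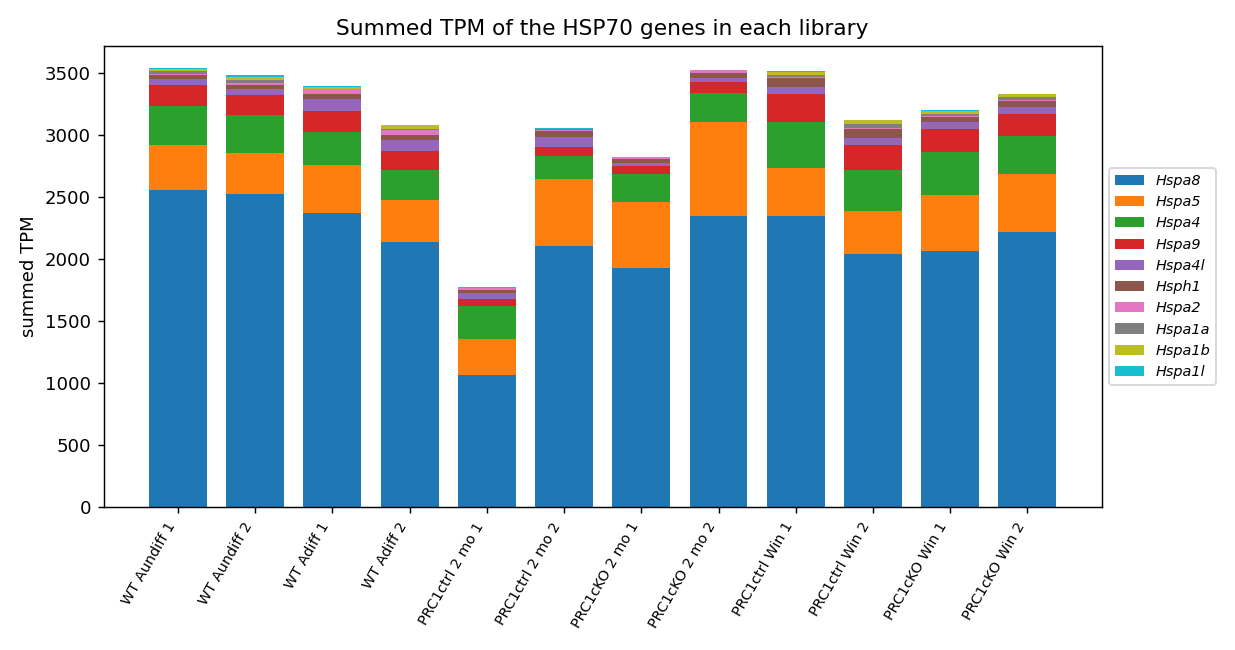
Summed TPM of the 10 HSP70 genes (vertical axis, TPM) in each of the 12 libraries (horizontal axis), with a coloured segment per gene. Hspa8 is the largest segment throughout, and PRC1ctrl replicate 1 at 2 mo has the lowest sum, 1770.0 TPM.

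From WT Aundiff to WT Adiff, *Hspa2* and *Hspa4l* were higher and *Hspa1a* and *Hspa1l* lower, while *Hspa8*, *Hspa5*, *Hspa9*, *Hspa4*, *Hspa1b* and *Hsph1* differed by less than 0.3 on the log2 scale. In the comparison of all genes with limma (log2(TPM + 1), two-sided, adjusted p under 0.05 by the Benjamini-Hochberg method and an absolute log2 difference above 1), 4 of 10 members passed both cut-offs, where 20.4% of the 15470 genes tested did. Of all genes 1724 were higher and 1430 lower, and 1165 and 1748 after median-of-ratios scaling, and their median log2 difference was 0.15. The members were chosen with this comparison known, so nothing is read from their count.

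*Hspa2* (chr12:76404176-76406938) was at 11.5 and 12.9 TPM in WT Aundiff and at 35.1 and 39.7 TPM in WT Adiff. No library of WT Adiff came near those of WT Aundiff, and the log2 difference was 1.54 ± 0.17 (SE). Across all groups *Hspa2* was highest in WT Adiff at 37.4 ± 3.27 TPM (mean ± SD, n = 2). It was followed by PRC1cKO at 2 mo (16.3 ± 6.76), PRC1ctrl at 2 mo (14.2 ± 2.35) and WT Aundiff (12.2 ± 1.02), whose ranges overlapped from one to the next. PRC1cKO after Win18446 (10.5 ± 0.057) and PRC1ctrl after Win18446 (7.33 ± 0.658 TPM) were lowest. Markers of meiotic prophase were a list of 20 genes such as *Sycp3* and *Stra8*. *Stra8* is also on the list of differentiating spermatogonia markers used below, so the prophase list is not specific to meiotic cells. Its genes summed to 760.2 and 659 TPM in WT Aundiff and to 1734 and 1511 TPM in WT Adiff. Of the 19 tested, 5 were higher and 0 lower by limma. In the PRC1 mice the same markers summed to 2450 to 4368 TPM at 2 mo and to 875 to 954 TPM after Win18446, so the list and *Hspa2* were both higher in every library at 2 mo than in any after Win18446, a difference that library method shares. Over all groups, however, the list and *Hspa2* differed in order. At 2 mo, with the low-input method, the list was higher than in WT Adiff, where *Hspa2* was highest. It was also higher in PRC1ctrl after Win18446 (897 and 918 TPM) than in WT Aundiff, while *Hspa2* was lower there. A list of 14 pachytene spermatocyte markers differed less in WT, with 462 and 459 TPM in WT Aundiff against 516 and 508 TPM in WT Adiff, 1 of 14 higher and a median log2 difference of 0.04. Its sums in the PRC1 mice overlapped, at 283 to 640.2 TPM at 2 mo and 493 to 602.5 TPM after Win18446. The part of both lists in the level of *Hspa2* was not tested, and in pooled cells more cells of a type and more RNA per cell cannot be told apart.

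*Hspa4l* (chr3:40745382-40796103), an HSP110 gene strongly transcribed in male germ cells, was at 46.5 and 43.6 TPM in WT Aundiff and at 97.3 and 90.4 TPM in WT Adiff, a log2 difference of 1.04 ± 0.13. This difference lies close to the cut-off of 1, and after median-of-ratios scaling it was 0.87. The related *Hspa4*, whose coding sequence was 66.0% identical to that of *Hspa4l*, was at 317 and 301 against 269 and 245 TPM. The ranges of *Hspa4* did not overlap, but the difference was only -0.27 ± 0.12. *Hsph1*, the heat-inducible HSP110 gene, was at 34.2 and 36.3 against 37.8 and 38.8 TPM.

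*Hspa1a*, the stress-inducible chaperone, was at 19.25 and 27.1 TPM in WT Aundiff and at 5.87 and 7.68 TPM in WT Adiff, a log2 difference of -1.63 ± 0.24. *Hspa1b*, its near-identical neighbour, was at 17.9 and 24.7 against 16.2 and 29.4 TPM, with a difference of 0.05 ± 0.31. The 2 copies were thus nearly equal in WT Aundiff (ratio *Hspa1a* to *Hspa1b* of 1.08 and 1.10) and unequal in WT Adiff (0.363 and 0.261). With both summed, an alternative chosen after the data were seen, the difference was -0.60 ± 0.28 and did not pass the cut-offs. Among somatic cells of the testis, the summed TPM of 12 Sertoli cell markers moved the same way. They summed to 120.4 and 115 TPM in WT Aundiff and to 43.0 and 45.7 TPM in WT Adiff. Of the 8 tested, 8 had a negative log2 difference and 2 were lower by limma, where 9.24% of all genes were. Among those not tested, *Amh* and *Dhh* had higher means in WT Adiff (0.13 and 0.64 TPM) than in WT Aundiff (0.045 and 0.41 TPM). None of the 12 was at 0 in both libraries of a WT group. Median log2 differences were also negative for Leydig cell (-0.37), macrophage (-0.32) and myoid and endothelial markers (-0.72). In that order 0 of 5, 1 of 6 and 1 of 10 tested were lower by limma, and 0, 2 and 1 had a positive log2 difference. The part of these lists in the level of *Hspa1a* was not tested.

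*Hspa1l* (chr17:34972703-34979285, next to *Hspa1a*) was at 9.95 and 13.1 TPM in WT Aundiff and at 4.32 and 5.66 TPM in WT Adiff, a log2 difference of -1.06 ± 0.24. The count of 4 members fell to 2, *Hspa2* and *Hspa1a*, without WT Aundiff replicate 2 and likewise without WT Adiff replicate 1. Spermatid markers, 18 genes such as *Prm1* and *Tnp1*, summed to 1029 and 1109 TPM in WT Aundiff and to 774 and 951 TPM in WT Adiff, and 0 of 18 passed the cut-offs. None of the 18 was at 0 in both libraries of a WT group, and their part in the value of *Hspa1l* was not tested.

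**Figure D2:**
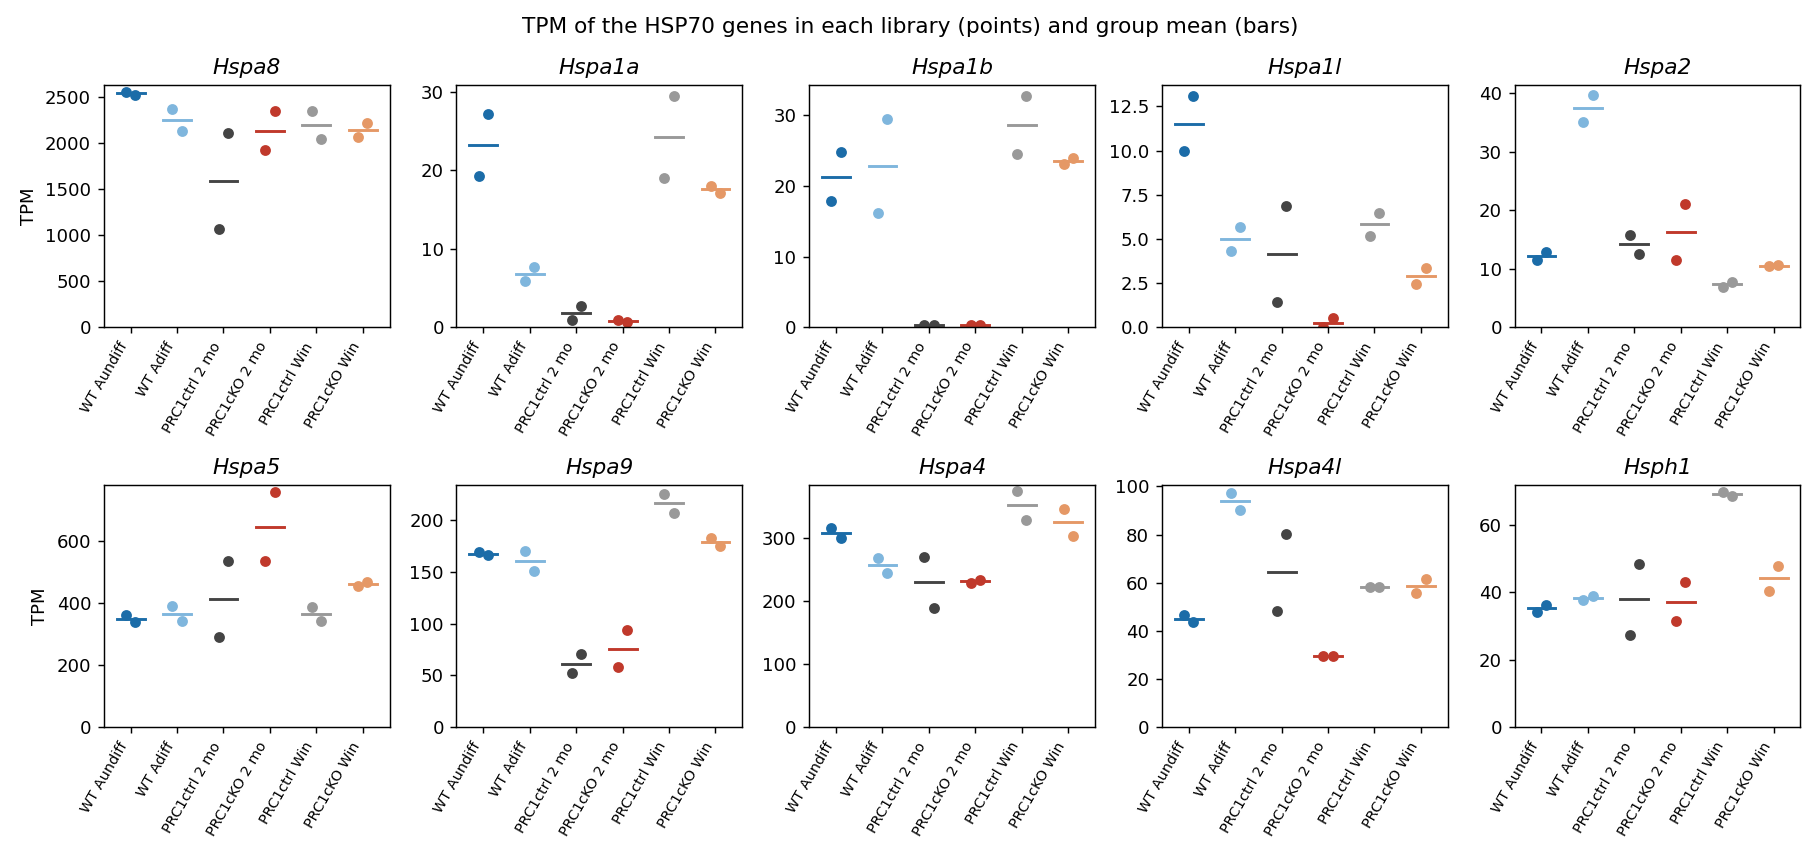
TPM (vertical axes, linear from 0, a separate scale per gene) of the 10 HSP70 genes in the 6 groups (horizontal axes). Points are libraries and bars group means, and Hspa2 is highest in WT Adiff at 35.1 and 39.7 TPM while Hspa1a, Hspa1b and Hspa9 lie lowest in the 4 libraries of untreated PRC1 mice.

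Among the untreated PRC1 mice at 2 mo, *Hspa1l* and *Hspa4l* were lower in both libraries labelled PRC1cKO than in both labelled PRC1ctrl, and the other members overlapped or were too low to test. The comparison had a larger spread between replicates than the others, with a median SE of 0.42 over all genes against 0.22 in WT and 0.17 after Win18446. Of the 8 members tested, 0 passed both cut-offs by limma, against 2.16% of 13953 genes, of which 1985 had an unadjusted p under 0.05. *Hspa1a* and *Hspa1b* did not reach 1 TPM in 2 libraries and were not tested.

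*Hspa1l* was at 1.45 and 6.86 TPM in PRC1ctrl and at 0.02 and 0.52 TPM in PRC1cKO, a log2 difference of -1.82 ± 0.63. The PRC1cKO level is near 0, so the size of this difference depends on the pseudocount, and it was -3.59 ± 1.18 with 0.1 in place of 1. The 2 control libraries differed from each other nearly as much as the groups did. *Hspa4l* was at 48.15 and 80.3 TPM in PRC1ctrl and at 29.55 and 29.4 TPM in PRC1cKO, a difference of -1.05 ± 0.37. Both passed the cut-offs in a single fit over all 12 libraries, which takes its spread from all 6 groups and in which 12.3% of all genes passed, against 2.16% before. Beside them, spermatid markers summed to 917 and 2316 TPM in PRC1ctrl and to 93.8 and 94.1 TPM in PRC1cKO, with 6 of 15 tested lower and 0 higher, and *Spem1* and *Catsper1* at 0 in both PRC1cKO libraries. The PRC1ctrl library with the higher sum, replicate 2, was also the higher for *Hspa1l* and *Hspa4l*. It was likewise the higher for all other members except *Hspa2* and *Hspa4*, so this order is not particular to them. The part of the spermatid markers in the values of *Hspa1l* and *Hspa4l* was not tested.

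*Hspa5* was at 289 and 534 TPM in PRC1ctrl and at 534 and 758 TPM in PRC1cKO, with a log2 difference of 0.69 ± 0.36. *Hspa8* was at 1065 and 2107 against 1925 and 2343 TPM, a difference of 0.50 ± 0.35. Both differences rested on PRC1ctrl replicate 1, the library with the lowest family sum, and without it they were 0.25 and 0.01, while without PRC1ctrl replicate 2 they were 1.14 and 1.00. In the same comparison, 8 Leydig cell markers summed to 1.39 and 1.41 TPM in PRC1ctrl and to 24.75 and 68.6 TPM in PRC1cKO. None of the 8 was at 0 in both libraries of a label. Of the 7 tested 1 was higher by limma, with a median log2 difference of 2.41. All 7 had an unadjusted p under 0.05, where 1985 of 13953 genes did. Markers of differentiating spermatogonia, 14 genes such as *Kit*, summed to 389 and 526 against 898.5 and 1134 TPM, with 0 of 13 tested called by limma and 6 at an unadjusted p under 0.05. The part of both lists in these values was not tested. *Hspa9* (51.9 and 70.4 against 57.8 and 93.8 TPM), *Hspa2* (15.8 and 12.5 against 11.5 and 21.1 TPM), *Hspa4* (271 and 190.0 against 229.6 and 234.5 TPM) and *Hsph1* (27.5 and 48.3 against 31.3 and 43.2 TPM) overlapped between the labels.

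After Win18446, the testis form *Hspa1l* and the HSP110 gene *Hsph1* were lower under the label PRC1cKO, and *Hspa2* and *Hspa5* were higher, each without overlap between the labels. By limma 0 of 10 members passed both cut-offs, against 12.2% of 16521 genes, of which 7317 had an unadjusted p under 0.05. The median log2 difference of all genes was -0.19, and 210 genes were higher and 1807 lower, or 373 and 1246 after median-of-ratios scaling.

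*Hsph1* was at 69.8 and 68.6 TPM in PRC1ctrl and at 40.5 and 47.9 TPM in PRC1cKO, a log2 difference of -0.64 ± 0.13. Its level in PRC1ctrl after Win18446 (69.2 ± 0.905 TPM) was the highest of the 6 groups, with no overlap with PRC1cKO after Win18446 (44.2 ± 5.20), and the other 4 group means lay between 35.25 and 38.3 TPM. *Hspa1l* was at 5.16 and 6.49 against 2.45 and 3.36 TPM, a difference of -0.81 ± 0.20. Spermatid markers summed to 224 and 211.5 TPM in PRC1ctrl and to 66.5 and 81.5 TPM in PRC1cKO, with 9 of 15 tested lower and *Prm2*, *Acrv1*, *Gapdhs* and *Catsper1* at 0 in both PRC1cKO libraries, and their part in the level of *Hspa1l* was not tested. *Hspa4l*, in contrast to the untreated mice, was at 58.0 and 58.05 TPM in PRC1ctrl and at 55.9 and 61.4 TPM in PRC1cKO.

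*Hspa2* was at 6.86 and 7.79 TPM in PRC1ctrl and at 10.5 and 10.6 TPM in PRC1cKO, a log2 difference of 0.47 ± 0.15. *Hspa5* was at 386 and 342 against 453 and 466 TPM, a difference of 0.34 ± 0.11. In both pairs the PRC1cKO libraries lay above the PRC1ctrl libraries, and median-of-ratios scaling gave 0.69 and 0.58. Markers of differentiating spermatogonia summed to 836 and 874 TPM in PRC1ctrl and to 1001 and 1085 TPM in PRC1cKO, and those of meiotic prophase to 897 and 918 against 954 and 875 TPM. Of the 20 meiotic prophase markers 4 were lower and 0 higher by limma, with a median log2 difference of -0.27, the opposite direction to *Hspa2*. The 14 differentiating markers had 4 higher and 0 lower, with a median of 0.67. Over all genes 10.9% were lower and 1.27% higher. The median of all genes was -0.19, or 0.03 after median-of-ratios scaling. The Leydig cell markers given above for 2 mo went the other way here. They summed to 435.4 and 86.7 TPM in PRC1ctrl and to 85.3 and 24.1 TPM in PRC1cKO. Of the 7 tested 0 were called by limma, with a median log2 difference of -1.44. The part of these lists in the values of *Hspa2* and *Hspa5* was not tested.

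*Hspa9* was at 225.5 and 207 TPM in PRC1ctrl and at 182.5 and 175 TPM in PRC1cKO (-0.27 ± 0.11), and *Hspa1a* at 19.0 and 29.4 against 18.0 and 17.1 TPM (-0.41 ± 0.21). *Hspa1b* was at 24.4 and 32.6 against 23.1 and 23.9 TPM (-0.26 ± 0.16). These 3 genes did not overlap between the labels, where the median of all genes was -0.19, and after median-of-ratios scaling their differences were -0.03, -0.18 and -0.02. Without PRC1ctrl replicate 1 those of *Hspa1a* and *Hspa1b* were -0.71 and -0.46, and without PRC1ctrl replicate 2 they were -0.11 and -0.05. *Hspa8* (2344 and 2042 against 2065 and 2219.8 TPM) and *Hspa4* (376 and 330.2 against 347 and 305 TPM) overlapped.

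**Figure D3:**
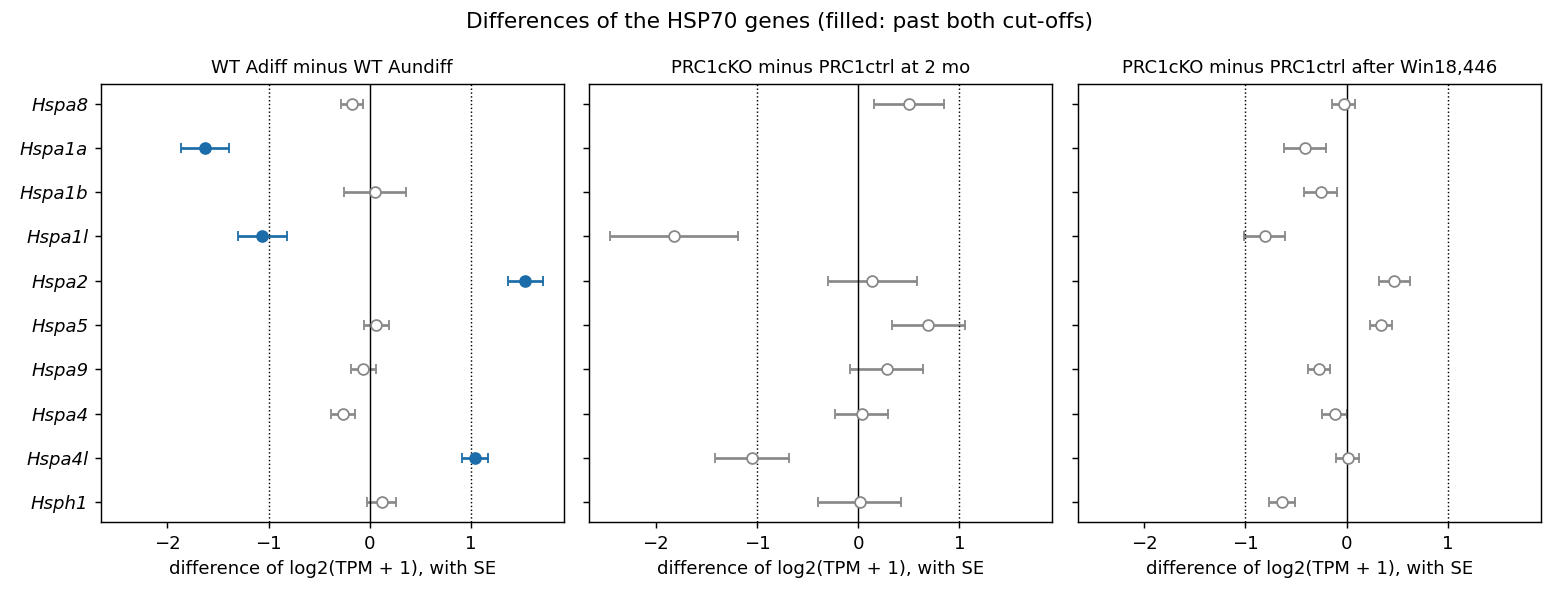
Difference of log2(TPM + 1) (horizontal axes) of each HSP70 gene (vertical axis) in 3 comparisons, with SE as bars, and dotted lines at the cut-off of 1 in either direction. Filled points passed both cut-offs by limma, which 4 genes did in WT and 0 did in either comparison of PRC1cKO with PRC1ctrl.

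Whether the difference between labels itself differed between untreated and Win18446 libraries was tested by an interaction term over the 8 PRC1 libraries. It passed the cut-offs for 0 of 10 members, against 7.74% of 18354 genes, of which 4541 had an unadjusted p under 0.05. Of all genes 506 had a higher and 914 a lower difference of differences, or 866 and 293 after median-of-ratios scaling. The largest difference of differences was that of *Hspa4l*, 1.07 ± 0.37, from -1.05 at 2 mo to 0.01 after Win18446, followed by *Hspa1l* (1.01 ± 0.75). *Hspa4l* passed the cut-offs without PRC1ctrl replicate 1 at 2 mo, and *Hspa8* without PRC1ctrl replicate 2 at 2 mo.

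For 3 members the libraries separated by library method. *Hspa1b* was at 0.27 to 0.36 TPM in the 4 low-input libraries and at 16.2 to 32.6 TPM in the other 8. *Hspa1a* was at 0.66 to 2.76 against 5.87 to 29.4 TPM, and *Hspa9* at 51.9 to 93.8 against 151 to 225.5 TPM. For these 3 genes every low-input library lay below every other library, whereas the other 7 members overlapped. The coding sequences of *Hspa1a* and *Hspa1b* had a GC content of 65.0% and 65.3%, the highest of the family. Their transcripts, at 58.9% and 58.1%, exceeded those of 93.0% and 90.5% of the 21901 protein-coding genes, whose median was 49.1%. The *Hspa9* transcript had 45.9% GC, below that median. The part of GC content and of library method in these levels was not tested, and the method cannot be told apart from mouse and treatment.

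Over the 12 libraries, the gene outside the family whose log2(TPM + 1) was most like that of *Hspa2* was *Tcea3*, a transcription elongation factor gene named as a marker of differentiating spermatogonia, with a Pearson's r of 0.94 among 10983 genes with a mean TPM of at least 5. *Uqcc2*, *Cib1*, *Zfp39* and *Kdelr2* followed (r of 0.91 to 0.92). For *Hspa1a* these were *Ankzf1*, *Stx6*, *Ubxn10*, *Cd276* and *Dennd4b* (0.99 for each), and for *Hspa5* *Psmd5*, *Jagn1*, *Mageb4*, *Tspan13* and *Nudt16* (0.93 to 0.96). The 12 points share library method and group, so these values describe the table only. *Ankzf1*, like *Hspa1a*, was lowest in the low-input libraries, at 1.41 to 2.89 TPM.

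Genes that work with HSP70 were read from 9 lists of 149 genes in all. Of 140 tested in WT, 8 were higher and 12 lower in Adiff by limma, 20 genes in all, against 20.4% of all genes called. The median log2 difference of these genes was 0.09, below the 0.15 of all genes. Of 32 J-domain co-chaperones tested, 2 were higher and 2 lower. *Dnajc9*, which also escorts histones, was at 46.7 and 37.1 TPM in Aundiff and at 129 and 94.3 TPM in Adiff (log2 difference 1.39 ± 0.20, adjusted p = 0.00434, limma). *Dnajb5* was at 1.23 and 1.71 against 6.03 and 6.87 TPM (1.6 ± 0.25, adjusted p = 0.0057, limma). *Dnajc10*, the disulfide reductase of the endoplasmic reticulum, was at 59.6 and 55.5 against 25.8 and 18.6 TPM (-1.35 ± 0.19, adjusted p = 0.00409, limma), and *Dnaja4* at 17.6 and 19.0 against 7.10 and 7.80 TPM (-1.19 ± 0.18, adjusted p = 0.00525, limma). The J-domain genes that passed thus moved in both directions.

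In the endoplasmic reticulum, where *Hspa5* acts, 3 of 31 genes were higher and 1 was lower. *Sdf2l1*, a partner of BiP, was at 11.1 and 13.9 TPM in Aundiff and at 35.3 and 37.4 TPM in Adiff (1.47 ± 0.18, adjusted p = 0.00261, limma), and the oxidase gene *Ero1a* at 58.2 and 67.6 against 166.6 and 134 TPM (1.24 ± 0.16, adjusted p = 0.00308, limma). The bZIP factor gene *Crebzf* had a log2 difference of 1.18 ± 0.28 (adjusted p = 0.0204, limma), and *Trib3*, a pseudokinase gene induced by stress, was lower at -1.73 ± 0.18 (adjusted p = 0.00172, limma). Among 16 mitochondrial partners of *Hspa9*, *Dnlz*, whose product keeps the mitochondrial chaperone soluble, was higher (1.04 ± 0.22, adjusted p = 0.0135, limma). None of the 12 nucleotide exchange factors and regulators, of the 12 HSP90 genes and partners, of the 4 other HSP70 genes (such as *Hspa14*) and of the 11 testis-specific chaperones tested passed both cut-offs in WT by limma. In that order 3, 6, 2 and 5 of them had an unadjusted p under 0.05, where 7593 of all 15470 genes tested did. Of 11 heat shock factors and small heat shock proteins, *Hsf4* was higher (1.39 ± 0.26, adjusted p = 0.00923, limma) and *Hspb3* lower, from 1.81 and 2.33 TPM to a listed 0 in both Adiff libraries.

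Immediate early genes, which many cells switch on within minutes of a stimulus, included 8 lower and 1 higher of 18 tested in WT, where 9.24% of all genes were lower and 11.1% higher, with a median log2 difference of -0.88. *Egr1* was at 77.9 and 88.1 TPM in Aundiff and at 3.17 and 5.08 TPM in Adiff (-4.06 ± 0.23, adjusted p = 0.000482, limma), *Egr2* had a difference of -3.19 ± 0.19 and *Ier3* of -2.52 ± 0.27. *Gadd45b* was higher (1.94 ± 0.24, adjusted p = 0.00288, limma). The 8 genes were lower in Adiff as *Hspa1a* was, but the summed TPM of the list overlapped, at 414.5 and 523.8 against 323.6 and 514.1, and their part in the level of *Hspa1a* was not tested.

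At 2 mo 2 of 130 of the partner genes were lower and 0 higher under the label PRC1cKO. Over all genes, 1.94% were lower and 0.222% higher. Both partner genes are on the testis-specific list. *Dnajc5b*, a J-domain gene of the cysteine string family, was at 50.05 and 71.5 TPM in PRC1ctrl and at 0.05 and 0.09 TPM in PRC1cKO (-5.83 ± 0.42, adjusted p = 0.0172, limma). *Odf1*, a small heat shock protein of the sperm tail, was at 8.79 and 14.8 against 0.61 and 0.86 TPM (-2.84 ± 0.45, adjusted p = 0.0477, limma). Without PRC1ctrl replicate 1 the count was 0. Without PRC1ctrl replicate 2 it was 1, *Dnajc9*, which was higher, with neither *Dnajc5b* nor *Odf1* called, and without either PRC1cKO library it was 1, *Dnajc5b*. The 11 testis-specific chaperones tested had a median log2 difference of -1.78, against 0.22 over all genes. It was negative for 10 of them and positive for 1. The part of the spermatid markers above in these values was not tested.

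After Win18446, 6 of 142 were lower and 0 higher, where 10.9% of all genes were lower and 1.27% higher. *Odf1* was at 5.45 and 4.43 against 0.36 and 0.25 TPM (-2.18 ± 0.19, adjusted p = 0.00176, limma), *Hspb9* at 4.43 and 5.47 against 1.36 and 1.06 TPM (-1.43 ± 0.19, adjusted p = 0.0036, limma), and *Shcbp1l* at 59.8 and 65.8 against 24.0 and 26.5 TPM (-1.28 ± 0.12, adjusted p = 0.00203, limma). *Dnajb8*, *Dnajc27* and *Crebzf* were the others. Without PRC1ctrl replicate 2 the count was 3 (*Dnajc27*, *Hspb9* and *Shcbp1l*). Of the testis-specific list 4 of 9 tested were lower, with a median of -0.56, beside the 9 of 15 spermatid markers. The part of the spermatid markers in these values was not tested. The exchange factors, HSP90 genes, mitochondrial partners and other HSP70 genes had 0 called by limma in both comparisons of PRC1cKO with PRC1ctrl. At an unadjusted p under 0.05 these lists held 0, 0, 1 and 0 genes at 2 mo and 4, 3, 8 and 0 genes after Win18446. Over all genes tested, 1985 of 13953 at 2 mo and 7317 of 16521 after Win18446 were under it.

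**Figure D4:**
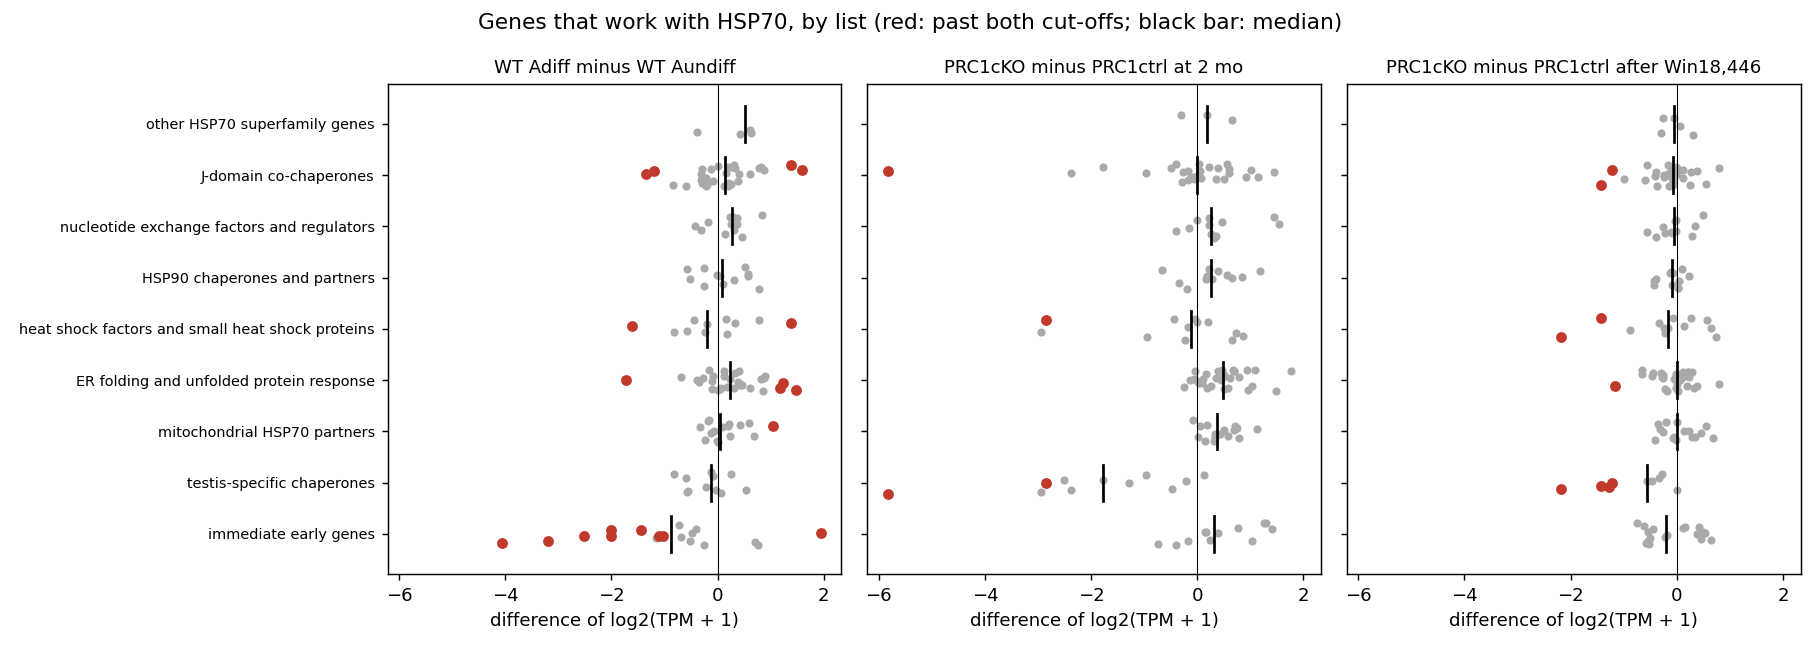
Difference of log2(TPM + 1) (horizontal axes) of the tested genes in 9 lists of HSP70 partners and related genes (vertical axis), in 3 comparisons. Each point is a gene (a gene on 2 lists is drawn on each), red points passed both cut-offs by limma and black bars are medians, and testis-specific chaperones lie to the left in both comparisons of PRC1cKO with PRC1ctrl, with medians of -1.78 and -0.56.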

How the data were processed

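RNA-seq of 12 libraries (6 groups of 2) was examined. The authors deposited 1 table of TPM per gene, computed with RSEM 1.3.3, and their processing notes also name Trim Galore 0.6.6, HISAT2 2.2.1, SAMtools 1.9, HTSeq 1.6.0 and DESeq2 1.28.1, on GRCm38. TPM is a share of its library, so depth and counting error are unknown and precision rests on the 2 libraries of a group. The authors' own comparison used read counts, which were not used here. Values were taken as log2(TPM + 1) and fitted with limma 3.58.1 in R 4.3.3 (trend and robust moderation, two-sided) for genes that reached a TPM of 1 in 2 or more of the 4 compared libraries, and called at an adjusted p under 0.05 (Benjamini-Hochberg over all genes tested) and an absolute log2 difference above 1. An exact permutation test of 2 against 2 libraries cannot give a p below 0.33, so none was used. The P-values measure the spread between these pools only.

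The members and gene lists were chosen with earlier results of these data known. Genes named are the members, *Ring1*, *Rnf2*, the 5 genes most correlated with *Hspa2*, *Hspa1a* and *Hspa5*, and, per list and comparison, up to 3 called genes with the largest difference in each direction, while others are named as examples of a list or as genes sharing sequence. Sequences were read from gencode vM21 (GRCm38) and the RefSeq promoter table (GRCm38.p6) with Python 3.11.15, and coding sequences were aligned with Biopython 1.88. Alternatives were a pseudocount of 0.1, dropping the filter, requiring a mean of 5 TPM, scaling by median of ratios, a replicate block, a fit over all 12 libraries, limma without trend and robust options, and leaving out each library.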

Additional observations from a re-analysis of the deposited data

Results flagged for a closer look

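The interaction term in limma tested whether the difference between PRC1cKO and PRC1ctrl changed between untreated and Win18446 libraries. It passed the cut-offs in 2 of 146 tested genes that work with HSP70, against 7.74% of 18354 genes. The count is thus below the share over all genes, and nothing is read from it. For *Dnajc5b* the difference of differences was 5.16 ± 0.32 on the log2 scale. It was at 50.05 and 71.5 TPM in PRC1ctrl against 0.05 and 0.09 TPM in PRC1cKO at 2 mo, and at 0.58 and 0.61 TPM against a listed 0 in both libraries after Win18446. All 4 treated libraries were under 1 TPM, so almost no difference could appear there on the log2(TPM + 1) scale, and the value mainly restates the difference at 2 mo. For *Crebzf* it was -2.09 ± 0.46 (adjusted p = 0.0428, limma). It was at 2.97 and 3.27 against 5.93 and 7.89 TPM at 2 mo and at 13.4 and 25.4 against 7.70 and 7.75 TPM after Win18446. Library method differs between the untreated and treated mice in the same way as treatment, so the 2 cannot be told apart in either gene.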

How the results depend on the processing

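No call among the 10 members reversed under any alternative. In WT the count of members called was 4, and 2 to 4 when a library was left out; 7 member calls were lost over all alternatives, that of *Hspa1a* once it was summed with *Hspa1b* and the other 6 of *Hspa4l* or *Hspa1l*, while *Hspa2* was called in each. At 2 mo the count of 0 members became 2 (*Hspa1l* and *Hspa4l*, both lower) with the replicate block and 2 in the fit over all 12 libraries, where 15.6% and 12.3% of all genes were called against 2.16% before, and the 2 partner genes became 0 without a filter, 1 with a mean TPM of at least 5, 7 after median-of-ratios scaling, 19 with the replicate block (12 higher, 7 lower), 13 in the fit over all 12 libraries, and 0 to 1 when a library was left out. After Win18446 the 6 partner genes became 3 with a mean TPM of at least 5, 3 in the fit over all 12 libraries, and 3 to 9 when a library was left out. In the interaction the count of 0 members was 1 (*Hspa4l*) after median-of-ratios scaling and 0 to 1 when a library was left out. Without a filter more genes shared the adjustment, and left-out libraries leave fewer samples; the cause of the other changes was not tested. Same-numbered libraries deviated together (correlations of 0.158 in WT, 0.381 at 2 mo and 0.122 after Win18446), but with 2 replicates the numbers are not known to pair the libraries, and the replicate block changed no other member's call. A library left alone in its group was assumed to vary like the others. TPM gives no depth, so values under 1 TPM have an unknown counting error.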
